A study of Mus musculus with 12 samples.

Results

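The subunits of the mitochondrial respiratory chain were followed through 12 one-colour Agilent arrays of sorted mouse bone marrow cells. Members were all genes whose symbol begins with Nduf followed by a, b, c, s or v (complex I), Sdha to Sdhd (complex II), Uqcr (complex III), Cox4 to Cox8 (complex IV) or Atp5 (complex V). Of 100 protein-coding mouse genes with such symbols, 97 had a probe that could be named, among 20284 named genes, and 93 were tested, among 13712 genes tested. No named probe stood for Ndufb1, Ndufb4b or Ndufb4c. The 4 named but untested members were Cox7b2, Cox8b, Cox8c and Ndufa4l2, none of which was well above background on any of the 12 arrays. The pattern also takes 12 assembly factors (Ndufaf1 to Ndufaf8 and Sdhaf1 to Sdhaf4), which help to build complexes I and II and are not part of the finished enzymes. The other 81 tested members are 36 subunits of complex I, 4 of complex II, 8 of complex III, 16 of complex IV and 17 of complex V.

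RNA came from C57BL/6 bone marrow of recipient mice whose blood system had been rebuilt from fetal liver cells of 4 genotypes: wild-type, Tet2KD/KD (a hypomorphic, knockdown allele of the DNA demethylase Tet2), Ezh2-/- (lacking the histone H3K27 methyltransferase Ezh2) and Tet2KD/KDEzh2-/-. Double-mutant mice entered in 3 states: without a named disease, with a mixed myelodysplastic and myeloproliferative disease (MDS/MPN), and with refractory anaemia with excess of blasts (RAEB). Each of these 6 states gave 1 array of LSK cells, the lineage-negative, Sca-1+, c-Kit+ fraction that holds stem cells and multipotent progenitors, and 1 array of granulocyte-macrophage progenitors (GMPs), which give rise to neutrophils and monocytes. No group was repeated, so every standard error and p-value below measures the spread between states and not between mice, and the labels do not give the number of mice behind an array. The host mice keep cells of their own, and the labels do not say how donor cells were separated from them.

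The 8 arrays without disease shared 1 slide, with the LSK arrays in 1 row and the GMP arrays in the other, while diseased LSK cells were on another slide and diseased GMPs on one of their own. Disease and slide therefore cannot be told apart, but RAEB and MDS/MPN can be compared within a slide. Within the diseased states, cell type and slide cannot be told apart either. All 11 tested LSK markers were lower in GMPs and all 9 GMP markers were higher, with median log2 differences of -3.33 and 4.12. These are averages over states, and single markers departed from them on diseased arrays. In MDS/MPN Ly6a read 4.64 in GMPs and 4.05 in LSK cells. Flt3 read 4.58 in RAEB GMPs, against -0.25 to 2.24 on the other GMP arrays. Elane read 5.51 in MDS/MPN and 3.74 in RAEB LSK cells, against 1.69 to 2.50 in LSK cells without disease. Of 9 tested erythroid markers 7 were lower in GMPs and 1 higher (median -1.79; summed level 48.3 to 128 in LSK cells and 3.38 to 8.50 in GMPs, in units of the array's 75th percentile). Of 6 B and T cell markers 2 were lower and 1 higher (summed level 29.8 to 49.2 and 23.4 to 35.7), and Ms4a1 and Pax5 were not well above background on any array. The part of these cells in the results was not tested. Tet2 ran from 0.12 to 1.57 on the arrays with wild-type Tet2 and from -1.61 to -0.64 on the Tet2KD/KD arrays without disease. The Ezh2 probe read 2.50 to 3.40 on all 12 arrays and showed no drop in Ezh2-/- cells; whether it lies in the deleted part is not known here. Xist, expressed in female cells, read 1.17 to 2.57 on the wild-type and double-mutant arrays without disease and -6.15 to -4.36 on the Tet2KD/KD and Ezh2-/- arrays. It read 1.35 to 1.63 in diseased LSK cells and -5.59 to -5.56 in diseased GMPs, so in each diseased state the cell types differed in this sex-linked signal. The part of donor sex in any difference below was not tested.

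The respiratory chain passes electrons from NADH (through complex I) and succinate (through complex II) by way of ubiquinone to complex III, cytochrome c and complex IV, which reduces oxygen. Complexes I, III and IV pump protons across the inner mitochondrial membrane, and complex V, the ATP synthase, uses their return to make ATP. Complex II is encoded in the nucleus alone, whereas the other complexes combine subunits from the nucleus with subunits encoded by mitochondrial DNA. The genes listed here are nuclear, and the symbol pattern does not take every nuclear subunit. Quiescent blood stem cells are known for a low rate of oxidative phosphorylation, and committed myeloid progenitors for a higher one. The arrays measured RNA, not protein or respiration, and in a sorted population fewer cells of a type and less RNA per cell cannot be told apart.

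Promoters were examined because these genes sit on many chromosomes and yet moved together between the cell types. Of the 93 tested members, 78 matched a RefSeq promoter (GRCm38.p6, 250 bases before to 50 after the start of the gene). Motifs were searched as exact letters on both strands. The letters TGCGCANGC, which resemble the site of the respiratory factor NRF1, were in 15 of the 78 promoters (19.2%), against 4.70% of the promoters of 27025 genes and 9.08% of those of 10985 tested genes. The ETS-like letters CCGGAAG, the type of site that GABP binds, were in 22 of them (28.2%, against 9.93% and 18.4%). The YY1-like letters AAGATGGC, which can overlap the ETS-like letters, were in 11 (14.1%, against 3.19% and 4.89%). The TATA box letters TATAAA were in 7 (8.97%, against 15.7% and 9.88%). Among members higher in GMPs 13 of 69 held the NRF1-like and 20 of 69 the ETS-like letters, against 2 of 9 for each among the other members. The YY1-like letters were in 11 of 69 and the TATA letters in 7 of 69, against 0 of 9 for each. The other members are those not called higher, and 9 are too few to judge a split. A match describes the letters only, and no binding was measured.

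5 promoters are printed, as the 200 bases before the start, 5′ to 3′ on the strand of the gene. Cox6a1 and Sdhd, subunits of complexes IV and II, hold an NRF1-like and an ETS-like match, Uqcr11 of complex III an ETS-like match alone, and Ndufa1 of complex I neither. These 4 genes were higher in GMPs, and Cox7a2l, a complex IV relative with no match, was not; the examples were picked and show no relation of matches to direction. Capitals mark the matches, and an ETS-like match on the opposite strand reads CTTCCGG.
Cox6a1, chr5:115348959-115349158, minus strand: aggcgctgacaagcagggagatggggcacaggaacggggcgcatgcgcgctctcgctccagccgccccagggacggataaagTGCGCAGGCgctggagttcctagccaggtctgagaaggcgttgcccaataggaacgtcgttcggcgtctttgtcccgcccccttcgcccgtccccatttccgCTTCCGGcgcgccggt
Sdhd, chr9:50603850-50604049, minus strand: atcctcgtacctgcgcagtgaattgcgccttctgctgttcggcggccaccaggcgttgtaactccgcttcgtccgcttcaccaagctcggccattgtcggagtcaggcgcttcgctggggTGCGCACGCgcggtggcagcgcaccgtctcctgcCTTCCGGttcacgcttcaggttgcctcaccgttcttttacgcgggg
Uqcr11, chr10:80406822-80407021, minus strand: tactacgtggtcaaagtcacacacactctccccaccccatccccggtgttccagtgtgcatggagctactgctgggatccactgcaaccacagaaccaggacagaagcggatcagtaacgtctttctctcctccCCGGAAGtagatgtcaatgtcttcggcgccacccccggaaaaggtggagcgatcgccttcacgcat
Ndufa1, chrX:37191239-37191438, minus strand: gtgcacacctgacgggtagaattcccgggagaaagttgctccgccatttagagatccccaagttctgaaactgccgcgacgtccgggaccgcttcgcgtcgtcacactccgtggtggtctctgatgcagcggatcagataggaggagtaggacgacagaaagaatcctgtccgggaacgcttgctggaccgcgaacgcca
Cox7a2l, chr17:83514334-83514533, minus strand: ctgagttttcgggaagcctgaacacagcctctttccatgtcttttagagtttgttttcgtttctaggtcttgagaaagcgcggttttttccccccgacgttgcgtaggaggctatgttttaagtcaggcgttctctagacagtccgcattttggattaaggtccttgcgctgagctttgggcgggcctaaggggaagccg
The NRF1-like match begins 118 bases before the start in Cox6a1 and 80 in Sdhd. The ETS-like match begins 16 bases before it in Cox6a1, 46 in Sdhd and 66 in Uqcr11.

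Most respiratory chain genes were higher in GMPs than in LSK cells. Levels are log2 signals from which the 75th percentile of the same array was subtracted, so that 0 is that percentile and 1 unit is a 2-fold difference. The test was limma over all 13712 genes with the state as a block, 6 GMP against 6 LSK arrays, with Benjamini-Hochberg adjusted p under 0.05 as the threshold. Of the 93 members 80 were higher in GMPs, 1 was lower and 12 did not pass, where 44.5% of all genes passed in either direction and 25.7% were higher. The members' median log2 difference was 0.77 (1.71-fold), against 0.16 for all genes. In 71 members all 6 GMP arrays lay above all 6 LSK arrays, a separation seen in 14.6% of all genes. In 1 member all 6 GMP arrays lay below, and the share of all genes with that order is not given here.

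The members are mostly abundant RNAs. Among the 1596 genes at or above the members' lower quartile of brightness (4.55), 824 (51.6%) were higher in GMPs and the median difference was 0.44. The size of the shift depends on how arrays were scaled. Quantile normalization, which moved the median of all genes from 0.16 to 0.01, left a members' median of 0.32 with 47 higher and 2 lower. For GMP minus LSK, the shares of all genes that passed under this and the other alternatives are not given here. Counts of members under those alternatives, here and below, therefore have no background beside them. Relative to the median of all genes the members stood 0.61 higher by the 75th percentile and 0.31 higher after quantile normalization. On the slide without diseased arrays the members' median was 0.78, with 81 higher and 1 lower. There LSK and GMP arrays lay in different rows of the slide, so cell type and row cannot be told apart.

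The members' median on single arrays ran from 5.66 (wild-type) to 6.00 (RAEB) in LSK cells, with 5.84 in Tet2KD/KD, 5.88 in Ezh2-/-, 5.73 in double-mutant and 5.88 in MDS/MPN cells. The wild-type GMP array had a median of 6.69, and the others had 6.57 in Tet2KD/KD, 6.66 in Ezh2-/-, 6.84 in double-mutant, 7.04 in MDS/MPN and 6.38 in RAEB cells. The GMP and LSK medians did not overlap. Each of the 5 complexes showed the same order of cell types in its own median.

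**Figure D1:**
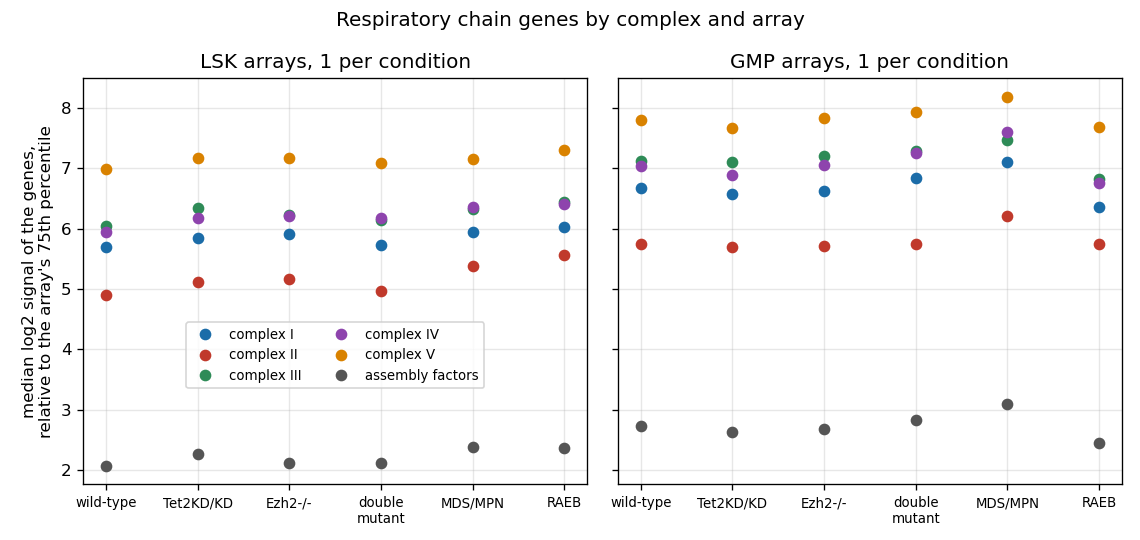
Median log2 level (relative to the array's 75th percentile) of the tested genes of each complex and of the assembly factors, by state, with LSK arrays in the left panel, GMP arrays in the right panel and complexes in separate colours. Over all 93 members the GMP medians (6.38 to 7.04) lie above the LSK medians (5.66 to 6.00), and in GMPs RAEB is lowest over all members. Heights of different complexes are not compared, since probes differ in brightness.

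Complex I takes electrons from NADH through 7 nuclear-encoded core subunits that carry its flavin and iron-sulfur clusters, surrounded by accessory subunits. Of its 36 tested subunits 33 were higher in GMPs (21 after quantile normalization), with a median difference of 0.84. Among the core subunits Ndufs8, which carries iron-sulfur clusters, ran from 3.89 to 4.35 in LSK cells (median 4.21) and from 4.71 to 5.50 in GMPs (median 4.94). It was 0.86 higher in GMPs (SE 0.14, limma adjusted p = 0.0023), and the cell types did not overlap. Ndufv1, which binds NADH and the flavin, ran from 5.85 to 6.51 (median 6.15) in LSK cells and from 6.57 to 7.46 (median 6.82) in GMPs. Its difference was 0.71 (SE 0.13, adjusted p = 0.0042), with no overlap. Ndufv2, its partner in the NADH module, was 0.76 higher (SE 0.13, adjusted p = 0.00301). The calls of Ndufv1 and Ndufv2 were lost under quantile normalization, with differences of 0.18 and 0.28.

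Ndufs1, the largest subunit of the NADH module, did not pass. It differed by 0.45 (limma adjusted p = 0.0895), with 4.02 to 4.46 in LSK cells (median 4.26) and 3.96 to 4.93 in GMPs (median 4.81), and the cell types overlapped.

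The accessory subunits of complex I had a larger median difference (0.86) than the core subunits (0.61), a description that was not tested. The difference with the lowest adjusted p of any member was that of Ndufa1, a small membrane-bound subunit needed for assembly. In LSK cells it read 5.74 in wild-type, 5.84 in Tet2KD/KD, 5.94 in Ezh2-/-, 5.69 in double-mutant, 6.06 in MDS/MPN and 6.06 in RAEB cells (5.89 ± 0.16, SD, n = 6). In GMPs the same states read 6.89, 6.83, 6.87, 6.90, 7.10 and 6.98 (6.93 ± 0.10, SD, n = 6). All 6 GMP arrays thus lay above all 6 LSK arrays. The difference was 1.04 (SE 0.11, limma adjusted p = 0.000228). Ndufb7, in the distal membrane arm, ran from 6.48 to 6.85 (median 6.56) and from 7.35 to 8.13 (median 7.63), a difference of 1.04 (SE 0.14, adjusted p = 0.000651). Ndufb10, of the same arm, differed by 0.96 (SE 0.13, adjusted p = 0.000675). Neither overlapped between the cell types.

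Ndufab1, the mitochondrial acyl carrier protein, which is both a complex I subunit and a carrier in lipoic acid synthesis, was the accessory subunit that did not pass. It is described because its values stood out once seen. In LSK cells it read 0.57, 0.71, 0.82, 0.39, 0.78 and 1.02 in wild-type, Tet2KD/KD, Ezh2-/-, double-mutant, MDS/MPN and RAEB cells. In GMPs it read 2.22, 2.11, 2.30, 2.39 and 2.29 in the first 5 of these and -1.24 in RAEB. The RAEB array alone lay below the LSK arrays, and the difference over all states was 0.96 (SE 0.53, adjusted p = 0.172). All 12 readings were well above background, and they come from 1 probe.

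Complex II, succinate dehydrogenase, also belongs to the citrate cycle. Sdhd, which anchors it in the membrane with Sdhc, read 5.20, 5.51, 5.50, 5.35, 5.76 and 5.80 in LSK cells of the 6 states in the order above, and 6.38, 6.23, 6.29, 6.47, 6.82 and 6.38 in GMPs. These did not overlap and differed by 0.91 (SE 0.13, limma adjusted p = 0.00101). Sdhc read 3.93 to 4.31 (median 4.16) in LSK cells and 4.59 to 5.11 (median 4.66) in GMPs, a difference of 0.60 (SE 0.12, adjusted p = 0.00538). The iron-sulfur subunit Sdhb differed by 0.56 (SE 0.15, adjusted p = 0.0173), from 6.38 to 6.71 against 6.83 to 7.61. Its call was lost in 7 of 24 alternatives, among them leaving out a wild-type (0.55) or double-mutant array (0.51). With the state as a block, leaving out either array of a state removes the pair and gives the same result. The 24 alternatives are therefore not separate checks. Sdha, the flavin-bearing catalytic subunit, was the exception: it read 4.58 to 5.31 (median 4.78) in LSK cells and 5.03 to 5.59 (median 5.11) in GMPs, which overlapped. Its difference of 0.34 did not pass (SE 0.14, adjusted p = 0.0766) and became -0.11 under quantile normalization, which left 1 call among the 4 subunits.

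In complex III, which hands electrons from ubiquinol to cytochrome c, all 8 subunits taken by the pattern were higher in GMPs (median 0.79). Of these, 5 still passed after quantile normalization. Uqcrq, a small subunit beside cytochrome b, read 6.92, 7.02, 7.15, 6.87, 7.13 and 7.22 in LSK cells (7.05 ± 0.14, SD, n = 6). Its GMP readings were 8.41, 8.16, 8.44, 8.57, 8.86 and 7.71 (8.36 ± 0.39, SD, n = 6). The lowest GMP reading, again RAEB, still lay above every LSK reading, and the difference was 1.31 (SE 0.18, limma adjusted p = 0.000907), the largest rise of any member. Uqcr11, another small subunit, rose by 1.15 (SE 0.16, adjusted p = 0.000835) and Uqcr10 by 1.02 (SE 0.15, adjusted p = 0.00117). Uqcrh, the acidic hinge protein near cytochrome c1, showed the smallest difference of the complex, 0.46 (SE 0.13, adjusted p = 0.0224). The Rieske iron-sulfur protein Uqcrfs1 was 0.70 higher and the large core proteins Uqcrc1 and Uqcrc2 were 0.77 and 0.55 higher.

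**Figure D2:**
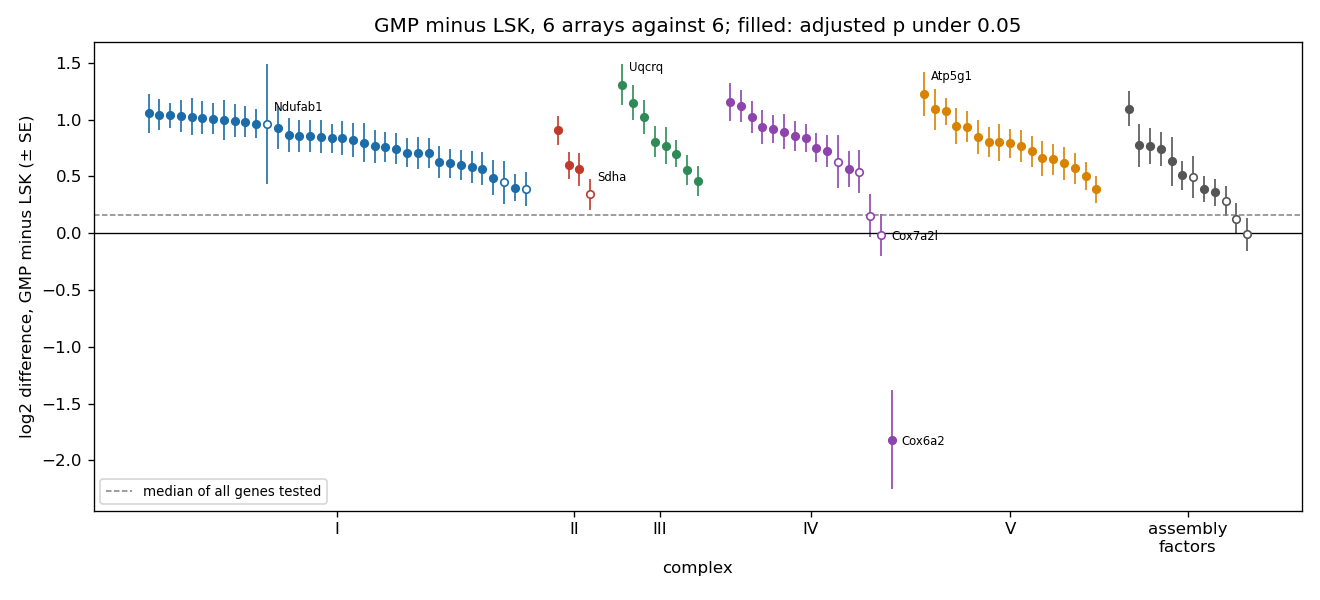
GMP minus LSK log2 difference of every tested member, grouped by complex, with the limma standard error as bars, filled points past the adjusted p threshold and a dashed line at the median of all genes (0.16). In complexes I, II, III and V all members lie above 0 (0.34 to 1.31), while complex IV holds the widest range, from Cox6a2 at -1.82 to Cox7a2 at 1.16. Among those below 0 after quantile normalization were Sdha (-0.11) and Atp5g2 (-0.00063).

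Complex IV, cytochrome c oxidase, has subunits found in all tissues and isoforms used in particular tissues. All 11 of the common subunits were higher in GMPs (median 0.89), while of the 5 tested tissue isoforms and paralogues none was higher and 1 was lower; after quantile normalization 8 of the 16 were higher and 2 lower. Cox6b1, which faces the cytochrome c side, ran from 3.83 to 4.16 (median 3.99) in LSK cells and from 4.89 to 5.62 (median 4.98) in GMPs, a difference of 1.12 (SE 0.14, limma adjusted p = 0.000588). Cox6a1, the common form of subunit 6a, read 8.31, 8.66, 8.64, 8.62, 8.75 and 8.79 in LSK cells and 9.35, 9.27, 9.60, 9.64, 9.94 and 9.46 in GMPs. No GMP reading reached down to an LSK reading, and the difference was 0.92 (SE 0.13, adjusted p = 0.000846). Cox7b rose by 1.02 (SE 0.14, adjusted p = 0.001) and Cox7a2, the common form of subunit 7a, by 1.16 (SE 0.17, adjusted p = 0.00111). Cox4i1, needed for assembly of the holoenzyme, rose by 0.86 (SE 0.13, adjusted p = 0.00142) and Cox8a by 0.75 (SE 0.13, adjusted p = 0.00229). Ndufa4, once assigned to complex I and counted here in complex IV, rose by 0.56 (SE 0.16, adjusted p = 0.0205), with GMP RAEB (5.98) inside the LSK range of 5.87 to 6.24. The call of Ndufa4 was lost in 11 of 24 alternatives, among them quantile normalization (0.06) and leaving out the wild-type, Ezh2-/-, double-mutant or MDS/MPN array of either cell type (0.50 to 0.56).

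Cox6a2, the heart and skeletal muscle form of subunit 6a, was the 1 member that was lower in GMPs. In LSK cells it read 1.51 in wild-type, 1.74 in Tet2KD/KD, 1.92 in Ezh2-/-, 2.06 in double-mutant, 1.68 in MDS/MPN and 2.87 in RAEB cells (1.96 ± 0.48, SD, n = 6). In GMPs it read 0.27, 0.63, -0.12, 0.30, 1.18 and -1.38 in the same order (0.15 ± 0.86, SD, n = 6). Every GMP reading lay below every LSK reading. The difference was -1.82 (SE 0.44, limma adjusted p = 0.0118), a 3.52-fold lower level. With the slide as a further term it was -1.54 and no longer passed (adjusted p = 0.0532), and over 24 alternatives it ran from -2.08 to -1.33.

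The other isoforms did not pass. Cox6b2, the testis form of subunit 6b, differed by 0.54 (SE 0.19, adjusted p = 0.0508), with GMP RAEB highest at 4.05, and Cox7a1, the heart form of subunit 7a, by 0.63 (SE 0.23, adjusted p = 0.0605). Cox4i2, the lung and hypoxia-responsive form of subunit 4, differed by 0.15 (SE 0.19, adjusted p = 0.534). Each of these 3 overlapped between the cell types. Cox7a2l, a relative of subunit 7a that links complexes III and IV in supercomplexes, read 7.73, 8.04, 7.90, 7.85, 7.72 and 7.72 in LSK cells (7.83 ± 0.13, SD, n = 6). Its GMP readings were 7.68, 7.58, 7.48, 7.69, 7.89 and 8.56 (7.81 ± 0.39, SD, n = 6), so that it was highest in GMP RAEB, where most members were low. The difference of -0.01 (SE 0.19, adjusted p = 0.959) had no settled sign: it was 0.09 when arrays were scaled to their median and -0.52, past the threshold (adjusted p = 0.0242), after quantile normalization.

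**Figure D3:**
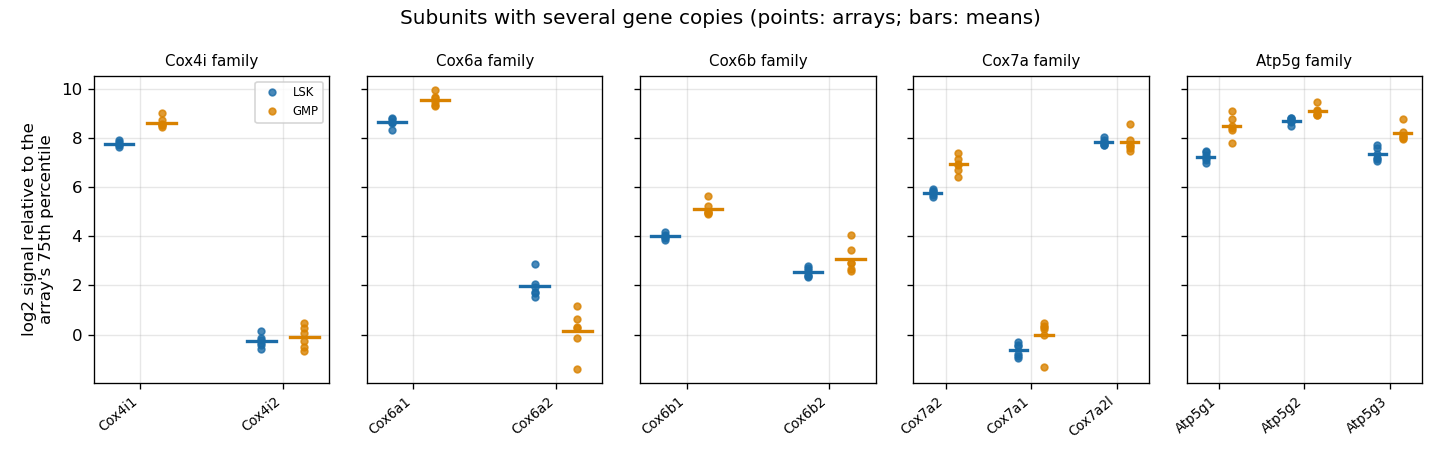
Log2 level, relative to the array's 75th percentile, of common and tissue forms of complex IV subunits, of Cox7a2l and of the Atp5g genes on each of the 12 arrays (points), with the mean of the 6 arrays of each cell type as a bar. GMP points of Cox4i1, Cox6a1, Cox6b1, Cox7a2 and the Atp5g genes lie above their LSK points, Cox6a2 shows the opposite order (1.51 to 2.87 against -1.38 to 1.18), and heights of different genes are not compared.

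Complex V consists of the F1 head, where ATP is made, and the Fo part in the membrane with its stalks. All 17 of its tested subunits were higher in GMPs (median 0.79), and 7 still passed after quantile normalization. In the head, Atp5e rose by 0.81 (SE 0.13, limma adjusted p = 0.00212), the catalytic Atp5b by 0.72 (SE 0.14, adjusted p = 0.00392) and the central shaft Atp5c1 by 0.65 (SE 0.14, adjusted p = 0.00657). The calls of Atp5b and Atp5c1 were lost under quantile normalization (0.29 and 0.11). Of the membrane part, the small subunit Atp5mpl read 6.68, 6.67, 6.76, 6.54, 6.89 and 6.88 in LSK cells and 7.80, 7.58, 7.84, 7.86, 8.15 and 7.64 in GMPs. These did not overlap, and it rose by 1.07 (SE 0.12, adjusted p = 0.000346). Atp5l, subunit g, rose by 0.94 (SE 0.14, adjusted p = 0.00121).

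The c ring of ATP synthase is built from 1 mature protein that 3 genes encode. Atp5g1 read 6.98 to 7.44 (median 7.24) in LSK cells and 7.78 to 9.09 (median 8.43) in GMPs, a difference of 1.23 (SE 0.19, limma adjusted p = 0.00164). Atp5g3 read 7.04 to 7.70 (median 7.26) and 7.94 to 8.77 (median 8.06), a difference of 0.85 (SE 0.15, adjusted p = 0.0028). Atp5g2 read 8.49 to 8.80 (median 8.71) and 8.91 to 9.45 (median 9.03), a difference of 0.39 (SE 0.12, adjusted p = 0.0318). All 3 separated the cell types, with unequal size; after quantile normalization Atp5g1 kept its call, Atp5g3 (0.33) lost it, and Atp5g2 stood at -0.00063. The call of Atp5g2 was lost or reversed in most alternatives (13 weaker and 1 reversed of 24), including the arrays without disease alone (0.33).

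Among the 12 assembly factors 8 were higher in GMPs (median 0.50; 5 after quantile normalization). Ndufaf4, which acts in early steps of complex I assembly, read 2.18 to 2.75 (median 2.42) in LSK cells and 3.20 to 3.97 (median 3.51) in GMPs. This was a rise of 1.10 (SE 0.15, limma adjusted p = 0.00096), and a second, dimmer probe gave 0.60. Ndufaf6 rose by 0.74 (SE 0.15, adjusted p = 0.0054) and Ndufaf8 by 0.77 (SE 0.16, adjusted p = 0.00592). Of the complex II factors, Sdhaf1 differed by 0.29, Sdhaf2 by 0.13 and Sdhaf4 by -0.01, none past the threshold.

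Other mitochondrial lists were counted beside the members in the same fit, in which 44.5% of all genes passed. Of 32 further assembly factors 14 were higher and 1 lower (median 0.46), led by Coa5, a complex IV factor (1.35, SE 0.15, limma adjusted p = 0.000332). Of 74 mitochondrial ribosome proteins, which make the subunits encoded by mitochondrial DNA, 63 were higher and 1 lower (median 0.71). Of 17 citrate cycle genes 13 were higher and none lower (median 0.54), among them citrate synthase, Cs (0.77, SE 0.12, adjusted p = 0.00191). Cytochrome c and coenzyme Q synthesis gave 6 higher and 1 lower of 14 (median 0.44), and mitochondrial DNA upkeep 3 higher and 1 lower of 15 (median 0.19). Of 9 known regulators of mitochondrial genes 1 was higher, Esrra (0.77), and 2 were lower, Gabpb1 (-1.22), a subunit of GABP, and Ppargc1a (-1.87), the coactivator PGC-1α. Of 20 glycolysis genes 12 were higher and 4 lower (median 0.83). Of 16 proliferation genes 4 were higher and none lower (median 0.32), and their part in the members' difference was not tested.

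The difference between the cell types was present in each of the 6 states, with unequal size. The median GMP minus LSK difference over members was 0.93 in wild-type, 0.54 in Tet2KD/KD, 0.65 in Ezh2-/- and 1.01 in double-mutant cells without disease. It was 1.07 in MDS/MPN and 0.36 in RAEB. In these diseased states the LSK and GMP arrays were on different slides and differed in Xist. Cell type, slide and donor sex therefore cannot be told apart there. Between 81 (RAEB) and 92 (MDS/MPN) of the 93 members were positive, and over all genes the medians ran from 0.02 in RAEB to 0.29 in MDS/MPN. Tet2KD/KD and Ezh2-/- cells, where the median was smaller than in wild-type and double-mutant cells, are also the states with low Xist in both cell types, and the part of donor sex was not tested. Without the RAEB arrays the count of members called was 85, and without the wild-type arrays it was 71.

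**Figure D4:**
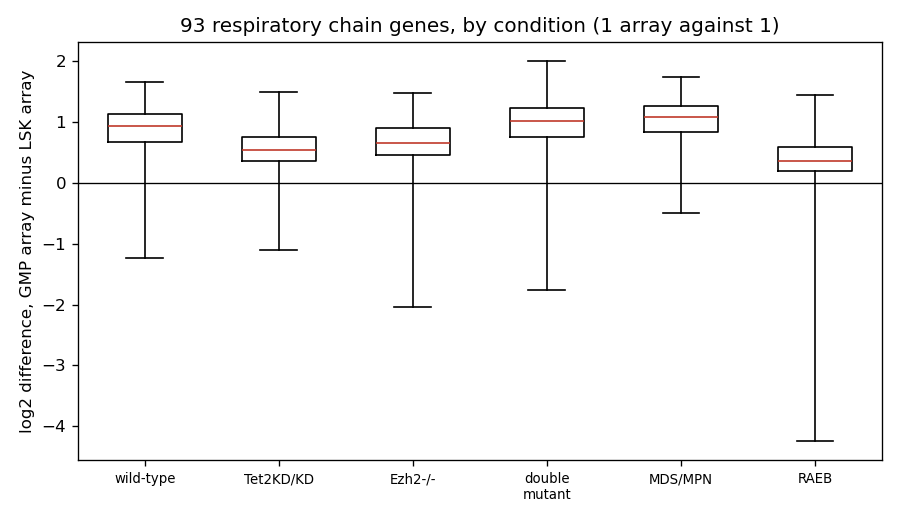
GMP minus LSK log2 difference of the 93 members in each of the 6 states, 1 array against 1: boxes span the quartiles, the red line is the median and whiskers reach the lowest and highest member. The median is lowest in RAEB (0.36) and highest in MDS/MPN (1.07), and the pairs of these diseased states cross slides. Single pairs of arrays carry no replicate error.

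No member passed the threshold for either mutation. The fit held cell type, Tet2 and Ezh2 as separate terms, with no term for the combination of the mutations. A level shared by the single mutants alone, as that of Xist was, therefore enters its error. Loss of Ezh2, over 4 against 4 arrays without disease, called 0 of the 93 members in limma (0 at an unadjusted p under 0.05), where 0.19% of all genes passed. The members' median difference was 0.06, with 72 positive, against -0.00 over all genes. Ndufa4 differed by 0.22 (adjusted p = 0.618) and the assembly factor Ndufaf1 differed by -0.17 (adjusted p = 0.75); these were the 2 members with the same sign in all pairs of arrays. For Tet2 knockdown 0 members and 0% of all genes passed (0 members at an unadjusted p under 0.05), with a median of 0.07 and 77 positive. Under quantile normalization that median was -0.00 with 40 positive, so the direction rests on the scaling. Cox6a2 (0.29), Ndufa6 (0.17) and Cox6b2 (0.13) had the same sign in all pairs for Tet2, each with an adjusted p of 0.818 or more.

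On single arrays the members leaned upward in Tet2KD/KD and Ezh2-/- LSK cells. Against wild-type LSK cells, 90 of 93 were higher in Tet2KD/KD (median 0.30, all genes 0.18) and 87 in Ezh2-/- cells (0.23, all genes 0.12). In GMPs the same comparisons gave 22 higher (median -0.06) and 45 higher (median -0.01). The 4 comparisons share the wild-type array of their cell type, which was the lowest of the 4 LSK arrays without disease for 71 members. Among the LSK arrays without disease, the wild-type one was also the highest for every tested late neutrophil marker. S100a9 read 5.80 on it, against 2.72 to 3.65 on the others, and the part of such cells was not tested. The double-mutant LSK array was the highest of these LSK arrays for 3 members and the lowest for 18. Ranks of arrays were counted over the members only and not over all genes. Xist was low on the Tet2KD/KD and Ezh2-/- arrays and not on the wild-type arrays. Mutation and donor sex therefore cannot be told apart in these comparisons. The difference of the Ezh2 effect between cell types was itself tested: 0 members passed, 2 had an unadjusted p under 0.05, and 0% of all genes passed. These 2 isoforms were Cox4i2, at 0.82 (SE 0.26, limma adjusted p = 0.614), and Cox6a2, at -0.73 (SE 0.23, adjusted p = 0.614). For the Tet2 effect in GMP minus that in LSK 0 members passed (0 at an unadjusted p under 0.05; 0% of all genes), and the median was -0.02.

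Double-mutant cells without disease differed from wild-type cells by a median of 0.13 over members (all genes 0.02), with 83 positive. In limma 0 members passed (0 at an unadjusted p under 0.05; 0% of all genes). The largest differences with the same sign in both cell types were those of Ndufs4 (0.32), an accessory subunit whose loss causes complex I deficiency, and of Cox6a1 (0.30). Cox7a1 had the largest negative one, -0.37. In GMPs the double mutant was the highest of the 4 arrays without disease for 82 members, a rank that was not counted over all genes. Leaving that array out turned the members' median to -0.03.

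Diseased double mutants, 4 arrays against 2, showed a members' median 0.08 above that of the other double mutants (all genes 0.10), with 61 positive. No member passed, 0 of 93, with 2 at an unadjusted p under 0.05 in limma, where 0.00729% of all genes passed. The sign of the median depended on scaling, at -0.05 with 39 positive after quantile normalization. Ndufa10, an accessory subunit with a kinase-like fold, read 2.71 in double-mutant LSK cells against 3.65 in MDS/MPN and 3.85 in RAEB. In GMPs it read 4.01 against 4.60 and 4.44, so that every diseased array was above its partner, and the difference was 0.77 (SE 0.23, adjusted p = 0.272). Uqcrfs1 read 4.56 against 5.23 and 5.27 in LSK cells and 5.50 against 6.00 and 5.88 in GMPs, a difference of 0.56 (SE 0.18, adjusted p = 0.276). Slide and disease cannot be told apart in these values.

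RAEB cells had lower member values than MDS/MPN cells on the GMP arrays, and not on the LSK arrays. RAEB and MDS/MPN arrays of a cell type shared a slide, and over both cell types 0 members passed in limma (1 at an unadjusted p under 0.05; 0% of all genes), with a median of -0.28 and 4 positive (all genes -0.07). In LSK cells the members' median RAEB minus MDS/MPN was 0.05 (all genes 0.04). There 0 members were 2-fold or more lower in RAEB, where 2.13% of all genes were, and Cox6a2 was 1.19 higher. In GMPs 90 of the 93 members were lower in RAEB, with a median of -0.59 (all genes -0.14). There 13 members were 2-fold or more lower, against 9.13% of all genes. These are single arrays, so no test exists for either cell type alone. For these single-array differences, genes as bright as the members were not set apart, and no other scaling was tried.

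All complexes took part in the lower GMP values of RAEB. The median was -0.62 in complex I, -0.46 in complex II, -0.65 in complex III, -0.69 in complex IV and -0.60 in complex V, and it was -0.42 among the assembly factors. The widest gap was that of Ndufab1, at 2.29 in MDS/MPN and -1.24 in RAEB, a difference of -3.53 (11.5-fold). Cox6a2 followed with -2.56 and Cox7a1 with -1.67. Among common subunits Atp5g1 fell from 9.09 in the MDS/MPN array to 7.78 in the RAEB array (-1.31) and Uqcrq from 8.86 to 7.71 (-1.15). Members that were higher in the RAEB array were Cox7a2l (0.67), Cox6b2 (0.59) and the assembly factor Ndufaf5 (0.14).

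In GMPs MDS/MPN was the highest of the 6 arrays for 81 members and RAEB the lowest for 47. These ranks were not counted over all genes, so they are not shown to be particular to the members. Against the double mutant without disease, the MDS/MPN GMPs had a members' median of 0.28 (all genes 0.23) and the RAEB GMPs one of -0.29 (all genes -0.01). These share the double-mutant array and cross slides. Other genes moved beside the members in GMPs: 15 of 16 proliferation genes were lower in RAEB than in MDS/MPN (median -0.74), as were 73 of 74 mitochondrial ribosome genes (-0.69) and 18 of 20 glycolysis genes (-0.67). The summed linear level of the proliferation genes ran from 322 to 488 in LSK cells and from 368 to 656 in GMPs, in units of the array's 75th percentile. Late neutrophil markers were higher in RAEB GMPs by a median of 0.99 (6 of 8) and lower in RAEB LSK cells, with a median of -4.40 (8 of 8). Their summed level ran from 10.8 to 344 in LSK cells and from 28.5 to 702 in GMPs, and their part and that of proliferation in the members' difference was not tested.

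With the RAEB LSK array left out, Ndufab1 passed the limma threshold in both disease comparisons, at -3.57 for RAEB minus MDS/MPN and -1.64 for diseased minus other double mutants. RAEB is then represented by the GMP array alone, which is assumed to vary like the other groups, and both values rest on its reading of -1.24. In these reduced fits 364 and 22 of all genes passed. They describe 1 array of a gene chosen after its values were seen, and not a tested difference between diseases.

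**Figure D5:**
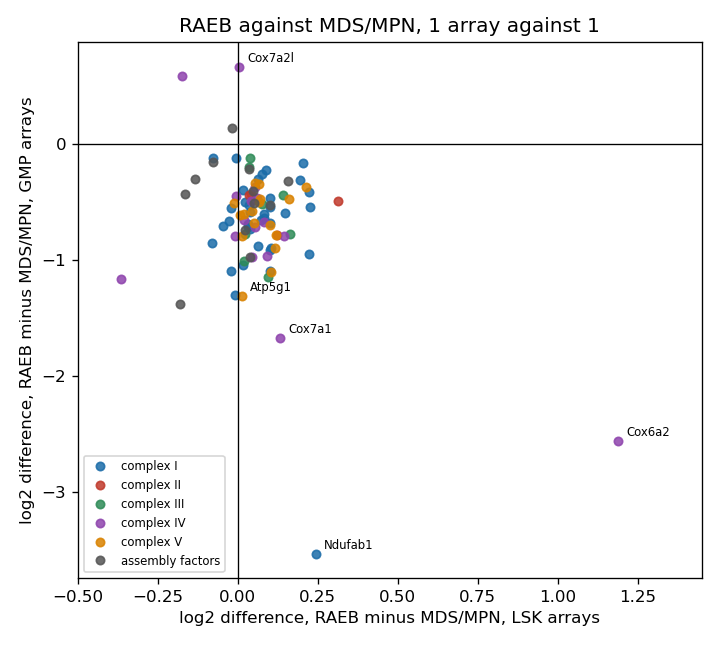
RAEB minus MDS/MPN log2 difference of each of the 93 members in LSK cells (horizontal axis) and GMPs (vertical axis), 1 array per state and cell type, coloured by complex. The points lie near 0 in LSK cells (median 0.05) and mostly below 0 in GMPs (median -0.59), with Ndufab1 lowest at -3.53.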

How the data were processed

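The values analysed are a background-corrected intensity, the processed signal of the deposited scanner output (Feature Extraction 10.7.1.1, per the file headers). The deposited spot flags are recorded as other, and the authors' value table equals the processed signal. The authors' own normalization is not given in the sources used here. Control spots were left out, and log2 signal minus the log2 75th percentile of each array (percentiles 168.5 to 389.4) was used. Of gene spots 45.6 to 52.3% were well above background and 0 were saturated, and the number of arrays limits the precision. Probes were named by RefSeq accession through a GRCm38.p6 gene table (the files name another build): 26762 of 55681 gene probes had 1 symbol and 28919 none. The brightest probe stood for a gene. Of 23 members with several probes well above background, 0 had probes that differed in sign between GMPs and LSK cells. In size the probes were close for Atp5l (0.94 to 1.01) and apart for Ndufb11 (0.84 and 0.17). Genes well above background on at least 2 arrays entered two-sided tests (limma 3.58.1, R 4.3.3), and the procedure was tested on simulated data.

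Named genes are, per class, up to 3 with the smallest adjusted p in each direction, or, with none past the threshold, up to 3 with the largest differences of 1 sign in all pairs, plus complex II and the isoform families. Others, such as Ndufab1, were chosen after their values were seen. Members and lists were chosen with earlier results of these data known. Alternatives were 3 other scalings, probe means, 2 dim-probe filters, a trended robust variance, slide, the 8 arrays without disease, the value table and each array left out; leaving out both RAEB or both wild-type arrays was chosen after seeing the data.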

Additional observations from a re-analysis of the deposited data

Results flagged for a closer look

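Among 120 sets of 6 arrays (the members named in the results and the complex medians, in each cell type), 10 held an outlying array. There the gap to the nearest neighbour was outside the 95% limit of Dixon's test. That limit assumes 6 readings of 1 group, whereas these arrays are 6 different states. Some sets share genes, and some genes, such as Ndufab1, were chosen after their values were seen. The count of 10 is therefore a description and is not set against a chance rate. In LSK cells the set with an outlying array was Cox6a1, with the wild-type array low at 8.31. In GMPs the MDS/MPN array was high for the median of complex II (6.20), for its members Sdha (5.59) and Sdhc (5.11), for Ndufv1 (7.46) and for Atp5g3 (8.77). The GMP RAEB array was low for Ndufab1 (-1.24), Ndufs1 (3.96), Cox7a1 (-1.33) and Cox7b (7.21). The members' median RAEB minus MDS/MPN was -0.59 in GMPs against 0.05 in LSK cells, and 90 of 93 members were more negative in GMPs. With 1 array per state and cell type the difference between the cell types was not tested.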

How the results depend on the processing

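The count of 81 members called between GMPs and LSK cells fell to 49 under quantile normalization and to 59 after normexp with quantile. It ran from 70 to 85 when each array was left out in turn. In this comparison, leaving out the LSK or the GMP array of a state gave the same result, since the state is a block. The value table equals the processed signal, so that alternative repeats the main result. Of the 81, 48 were called again under quantile normalization and 76 kept their direction. In the other 7 comparisons 0 members passed under every alternative, except that leaving out an array gave 0 to 1 for diseased minus other double mutants and for RAEB minus MDS/MPN (Ndufab1, without the RAEB LSK array). Some named genes changed sign. Between GMPs and LSK cells quantile normalization turned Atp5g2 to -0.00063 and Sdha to -0.11, normexp with quantile turned Sdha to -0.10, and array-median scaling turned Cox7a2l to 0.088. Ndufb5 in double mutant minus wild-type became 0.033 with the mean of its probes, and Ndufa13 in diseased double mutants 0.069 by array median. With each array left out in turn, Cox7a2l ran from -0.18 to 0.076 between the cell types and from -0.17 to 0.85 for RAEB minus MDS/MPN. For the Tet2 effect in GMP minus that in LSK, Cox4i2 ran from -0.17 to 0.64, Cox6a2 from -0.065 to 0.47, Cox6b2 from -0.39 to 0.077 and Ndufaf4 from -0.10 to 0.33. For double mutant minus wild-type, Cox6a2 ran from -0.057 to 0.64, Ndufaf1 from -0.29 to 0.074 and Ndufb5 from -0.27 to 0.12. For diseased double mutants Ndufa13 ran from -0.24 to 0.0040. The cause was not tested. The GMP minus LSK fit has the state as its block; the labels give no replicate numbers for any other pairing. With 1 array per group, a difference between 2 states has no replicate error.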
